A study of Homo sapiens with 18 samples.

Results

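Cholesterol is made in animal cells from acetyl-CoA through a long chain of enzymes, and 8 genes of this chain and its control were followed here: ACAT2, HMGCS1, MVK, IDI1, FDFT1, SQLE, DHCR7 and INSIG1. A gene was read only from probe sets annotated to it alone. That left 7 of the 8 genes with 20 probe sets, among 19775 genes and 54675 probe sets on the array. FDFT1, which encodes squalene synthase, had no such probe set and was not analysed here. None of the 8 encodes a lipoprotein receptor, so uptake was described from a separate list of genes.

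The arrays came from cells of MNNG/HOS (MNNG below) and 143B, established human osteosarcoma lines, which carried the green fluorescent protein ZsGreen and grew as orthotopic bone tumors. They had been stained beforehand with PKH26, a dye of the cell membrane that each division dilutes. Cells that kept the dye (High, called tumor-initiating cells in the labels) were sorted apart from bulk tumor cells that had lost it (Low), with 150000 High and 700000 Low cells taken per tumor. The 18 arrays held 3 143B_High, 5 143B_Low, 2 MNNG_Lung, 4 MNNG_High and 4 MNNG_Low samples. The MNNG_Lung samples came from lung metastases of MNNG/HOS cells, 1 from the animal of tumor MNNG-1233 and 1 from a mixture. The labels do not state whether the lung cells were sorted. High and Low samples that share a number came from the same tumor. The 143B_High sample 143B-51&52 joined 2 tumors, and so did 143B-54&55. The tumor-bearing animal is a mouse, while the probes were designed for human transcripts. No untransplanted or unlabelled cells were among the samples used here, so all groups share the reporter, the dye and growth in an animal.

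The chain starts with ACAT2 and HMGCS1, which build HMG-CoA in the cytosol. Mevalonate made from it is phosphorylated by MVK and turned into isoprene units, which IDI1 interconverts. FDFT1 joins such units to squalene, SQLE oxidizes squalene, and DHCR7 carries out the final reduction to cholesterol. When sterols are plentiful INSIG1 holds the SCAP-SREBP complex in the endoplasmic reticulum. When they are scarce SREBP is cleaved, enters the nucleus and activates most genes of the chain, INSIG1 among them. Because of this shared control these genes usually move together, and dividing tumor cells need the chain for membranes and for the lipid anchors of small GTPases.

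RefSeq (GRCh38.p14) promoter windows, 250 bases before to 50 after a start, were matched for 5 of the 7 measured genes and looked up by symbol. Those of INSIG1, HMGCS1 and MVK are shown because the first fell with dye retention in MNNG tumors, the second fell too and also differed between the lines, and MVK rose. Each is written 5′ to 3′ on the strand of its gene, and capitals mark CCAAT, the box that NF-Y binds beside SREBP at many sterol genes, or its reverse complement ATTGG.
INSIG1 promoter, chr7:155297628-155297927, plus strand: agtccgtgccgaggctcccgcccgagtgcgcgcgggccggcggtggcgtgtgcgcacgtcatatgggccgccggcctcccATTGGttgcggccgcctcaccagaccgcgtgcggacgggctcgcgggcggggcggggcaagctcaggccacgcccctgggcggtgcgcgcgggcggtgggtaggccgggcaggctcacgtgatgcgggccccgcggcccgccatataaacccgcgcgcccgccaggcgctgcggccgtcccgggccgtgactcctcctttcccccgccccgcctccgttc
HMGCS1 promoter, chr5:43313363-43313662, minus strand: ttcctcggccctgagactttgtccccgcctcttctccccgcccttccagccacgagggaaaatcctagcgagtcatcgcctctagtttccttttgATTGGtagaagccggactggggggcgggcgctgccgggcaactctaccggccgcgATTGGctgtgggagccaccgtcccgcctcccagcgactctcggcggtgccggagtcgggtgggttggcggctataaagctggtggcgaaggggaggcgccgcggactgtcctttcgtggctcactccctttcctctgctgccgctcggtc
MVK promoter, chr12:109573544-109573843, plus strand: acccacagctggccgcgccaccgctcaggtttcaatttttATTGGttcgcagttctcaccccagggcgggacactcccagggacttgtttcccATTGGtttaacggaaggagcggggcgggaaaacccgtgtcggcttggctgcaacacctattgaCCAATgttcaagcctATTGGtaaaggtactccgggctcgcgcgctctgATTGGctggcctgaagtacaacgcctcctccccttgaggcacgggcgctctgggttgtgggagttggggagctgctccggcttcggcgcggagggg
The INSIG1 window held 1 such match, the HMGCS1 window 2 and the MVK window 5, and CCAAT occurred on either strand in 34.6% of the 35116 windows in the table. The other start of HMGCS1 had 0. The 3 windows of IDI1 held 0, 3 and 2, and the 2 windows of DHCR7 held 2 and 0. TCACNCCAC, the core letters of a sterol regulatory element, were searched on both strands and had no match in any of the 9 windows of these 5 genes, against 1.13% of all windows. A match is a run of letters and no measured binding site, and the absence of one says only that these letters are not in these 300 bases.

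All values below are log2 probe set signals, each gene read from its probe set with the highest mean. All 7 measured genes reached 5.36, the median over all arrays and probe sets, on 3 or more arrays and so were among the 14418 genes tested, and 19 of their 20 probe sets passed that filter. Differences are log2 differences with their standard error from 1 limma fit of the 5 group means. A gene is said to have risen or fallen where its Benjamini-Hochberg adjusted p over all 14418 genes was under 0.05.

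The arrays differed in overall shape, and this moved with the groups. The interquartile range of signals spanned 2.09 and 2.28 log2 units on the lung arrays, 2.76 to 3.18 on MNNG_High, 3.29 to 3.40 on MNNG_Low, 3.26 to 3.34 on 143B_High and 3.30 to 3.48 on 143B_Low arrays. The narrowest MNNG_High arrays were those of tumors MNNG-1233 (2.76) and MNNG-1231 (2.84). Hybridization control signals were 13.3 and 14.5 on the lung arrays, above all others, 11.4 to 12.9 on MNNG_High and 10.7 to 10.9 on MNNG_Low arrays. They were 11.6 to 11.8 on 143B_High and 9.99 to 11.2 on 143B_Low arrays. The GAPDH 3′ minus 5′ difference was 0.50 to 0.75 on MNNG_High and 0.34 to 0.41 on MNNG_Low arrays. Arrays of a group correlated at r of at least 0.956 in bone tumors and at 0.865 between the 2 lung arrays. VIM, a mesenchymal marker, averaged 14.3 on lung, 14.6 on MNNG_High, 14.6 on MNNG_Low, 14.5 on 143B_High and 14.5 on 143B_Low arrays. It is 1 of 6 genes that check for osteosarcoma cells, and the list was not level throughout. In 143B_Low minus MNNG_Low 4 of the 6 fell and 0 rose, where 14.5% of all genes fell. The same counts held in 143B_High minus MNNG_High (14.7%). In MNNG_Lung minus MNNG_Low 3 fell and 0 rose (51.9%).

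**Figure D1:**
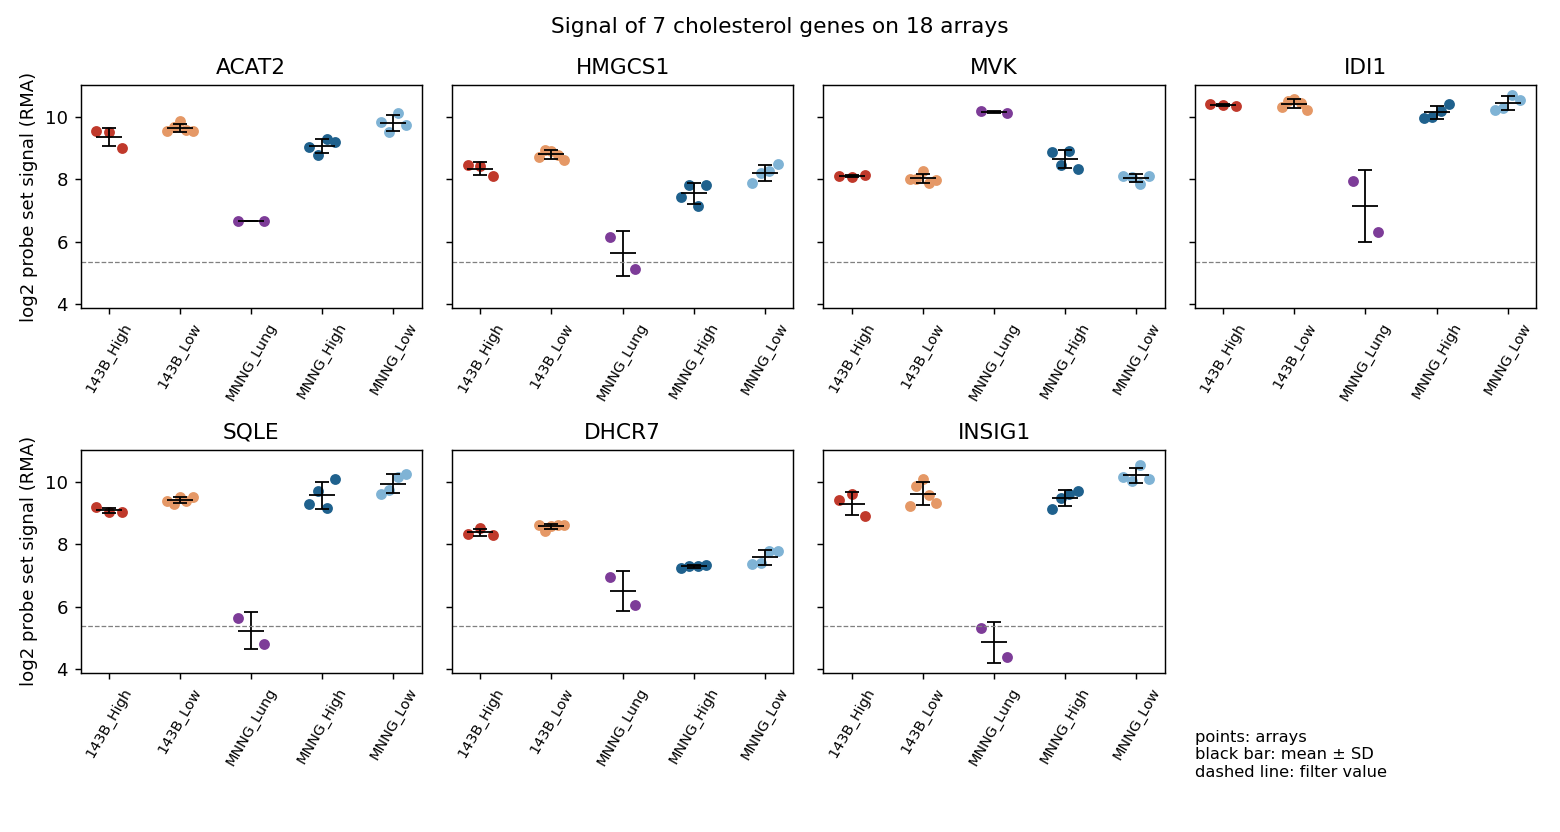
Log2 signal (vertical axis) of the 7 measured genes on all 18 arrays by group (horizontal axis). Points are arrays, black bars the mean ± SD, and the dashed line is the filter value of 5.36. In MNNG tumors ACAT2, HMGCS1 and INSIG1 are lower in High than in Low cells on every array and MVK is higher, while on the 2 lung arrays 6 genes are low and MVK is high.

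In MNNG tumors the first 2 enzymes of the chain and INSIG1, a gene of its control, were lower in dye-retaining cells. ACAT2, HMGCS1 and INSIG1 fell, MVK rose, and IDI1, SQLE and DHCR7 did not pass the test. Of all genes tested 15.5% fell and 10.6% rose in this comparison, 26.1% together, against 3 and 1 of these 7 genes. The median difference of the 7 was -0.38, with 6 below and 1 above 0, and that of all genes was -0.19.

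ACAT2, the cytosolic thiolase that makes acetoacetyl-CoA, had signals of 9.05, 8.77, 9.28 and 9.20 in MNNG_High cells of tumors MNNG-1231, MNNG-1232, MNNG-1233 then MNNG-1235, against 9.83, 9.52, 10.12 and 9.75 in MNNG_Low cells of the same tumors. Every High array lay below every Low array, and all 4 tumors moved by a similar amount. The difference was -0.73 ± 0.16, which is 1.66-fold lower (adjusted p = 0.00664).

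HMGCS1, which condenses acetoacetyl-CoA with acetyl-CoA to HMG-CoA, had signals of 7.42, 7.80, 7.14 and 7.83 in MNNG_High cells, against 7.88, 8.19, 8.27 and 8.50 in MNNG_Low cells, in the same order of tumors. The groups did not overlap, but the highest High array and the lowest Low array were only narrowly apart. HMGCS1 fell by 0.66 ± 0.20, or 1.59-fold (adjusted p = 0.0280).

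INSIG1 had signals of 9.11, 9.48, 9.60 and 9.71 in MNNG_High cells, against 10.14, 10.03, 10.54 and 10.09 in MNNG_Low cells. All High arrays were again below all Low arrays. INSIG1 fell by 0.73 ± 0.23, or 1.65-fold (adjusted p = 0.0306).

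MVK, mevalonate kinase, went the other way. Its signals were 8.86, 8.47, 8.91 and 8.33 in MNNG_High cells, against 8.12, 8.07, 7.84 and 8.09 in MNNG_Low cells, without overlap. The rise of 0.62 ± 0.14 (1.53-fold, adjusted p = 0.00803) was largest in tumors MNNG-1233 and MNNG-1231, whose High arrays had the narrowest signal range.

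The later enzymes did not pass on their brightest probe sets. IDI1, isopentenyl diphosphate isomerase, had signals of 9.96, 10.01, 10.19 and 10.42 in MNNG_High and 10.23, 10.29, 10.70 and 10.54 in MNNG_Low cells, and the groups overlapped (-0.30 ± 0.23, adjusted p = 0.324). SQLE, squalene epoxidase, had 9.28, 9.70, 9.16 and 10.10 in MNNG_High and 9.62, 9.74, 10.15 and 10.23 in MNNG_Low cells, also with overlap (-0.38 ± 0.20, adjusted p = 0.159). In both genes MNNG-1235 was the highest High array. DHCR7 had 7.24, 7.31, 7.29 and 7.32 in MNNG_High and 7.36, 7.38, 7.78 and 7.77 in MNNG_Low cells. Its groups did not overlap, since the High arrays were nearly alike, yet its difference of -0.28 ± 0.16 did not pass (adjusted p = 0.174). Groups without overlap were seen for 4 of the 7 genes downward and 1 upward, against 19.4% and 10.4% of all genes, 29.8% together.

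Within single tumors the direction was the same throughout. High minus Low of the same tumor was below 0 in 24 of 28 gene and tumor combinations, and the 4 above 0 were the 4 tumors of MVK. All 7 genes therefore had 1 direction in 4 of 4 tumors, 6 lower and 1 higher, as did 60.7% of all genes (41.8% lower, 18.9% higher). ACAT2 ranged from -0.84 to -0.55 between tumors and HMGCS1 from -1.14 to -0.39. SQLE ranged from -0.99 to -0.04, with MNNG-1233 far below the other tumors. With the tumor as a replicate block, and the lung arrays out of the fit, IDI1 (adjusted p = 0.0290), SQLE (0.0306) and DHCR7 (0.0433) passed as well, so that all 7 genes were called, as were 8044 of all 14418 genes. Leaving out the lung arrays without the block already added DHCR7 (adjusted p = 0.0476). Of all 14418 genes 6407 were then called, against 3761 with the lung arrays in the fit.

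**Figure D2:**
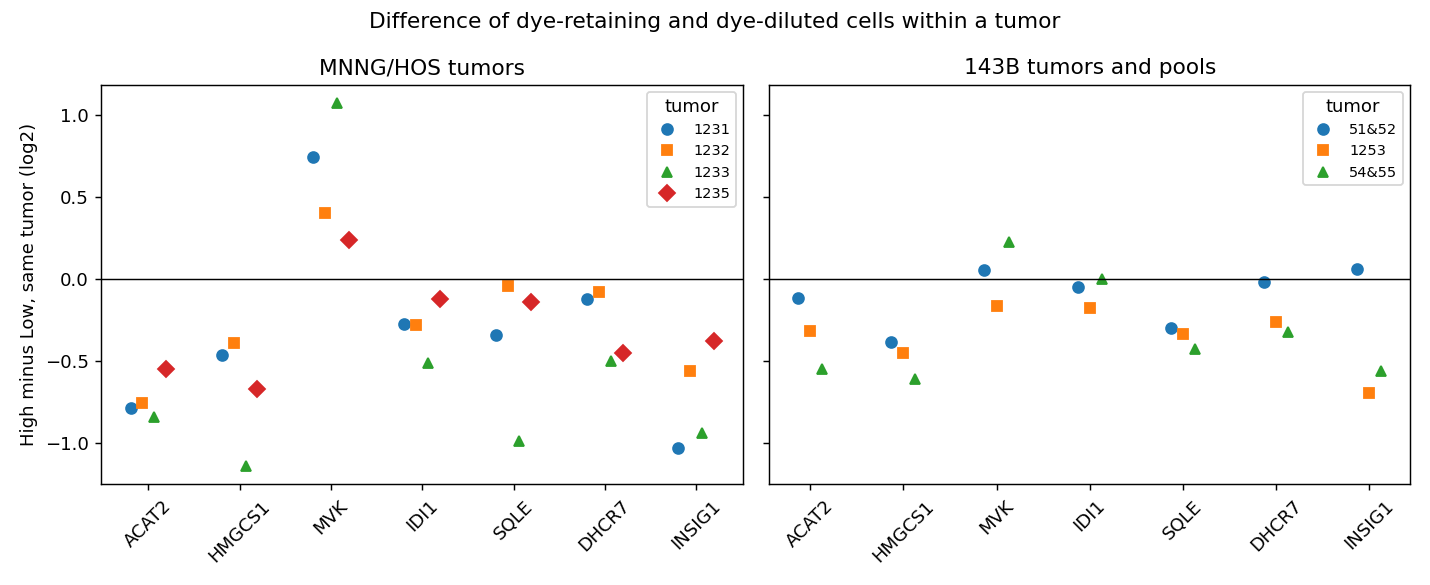
High minus Low log2 signal within the same tumor (vertical axis) for each gene (horizontal axis), with MNNG tumors on the left and 143B tumors or pools on the right. Each symbol is 1 tumor or pool, and for pools the mean of the 2 Low arrays was subtracted. In MNNG 24 of 28 points lie below 0 and the other 4 are MVK, while in 143B 17 of 21 lie below 0.

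How far these shifts stood out from other genes depended on the gene. Genes with a mean signal of 8 to 10 on the bone tumor arrays had a median difference of -0.38 in this comparison (3957 genes, quartiles -0.53 and -0.21). Relative to that median ACAT2 lay at -0.35, INSIG1 at -0.35, HMGCS1 at -0.29, SQLE at 0.00 and MVK at 0.99. IDI1 lay at 0.01 relative to the median of -0.31 for signals of 10 to 12, and DHCR7 at -0.11 relative to -0.17 for signals of 6 to 8. A second quantile normalization moved the median of all genes to 0.01. MVK was then still called, at 0.86 above the median, while ACAT2 (-0.42 relative to the median, adjusted p = 0.144), INSIG1 (-0.44, 0.305) and HMGCS1 (-0.36, 0.382) were not.

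**Figure D3:**
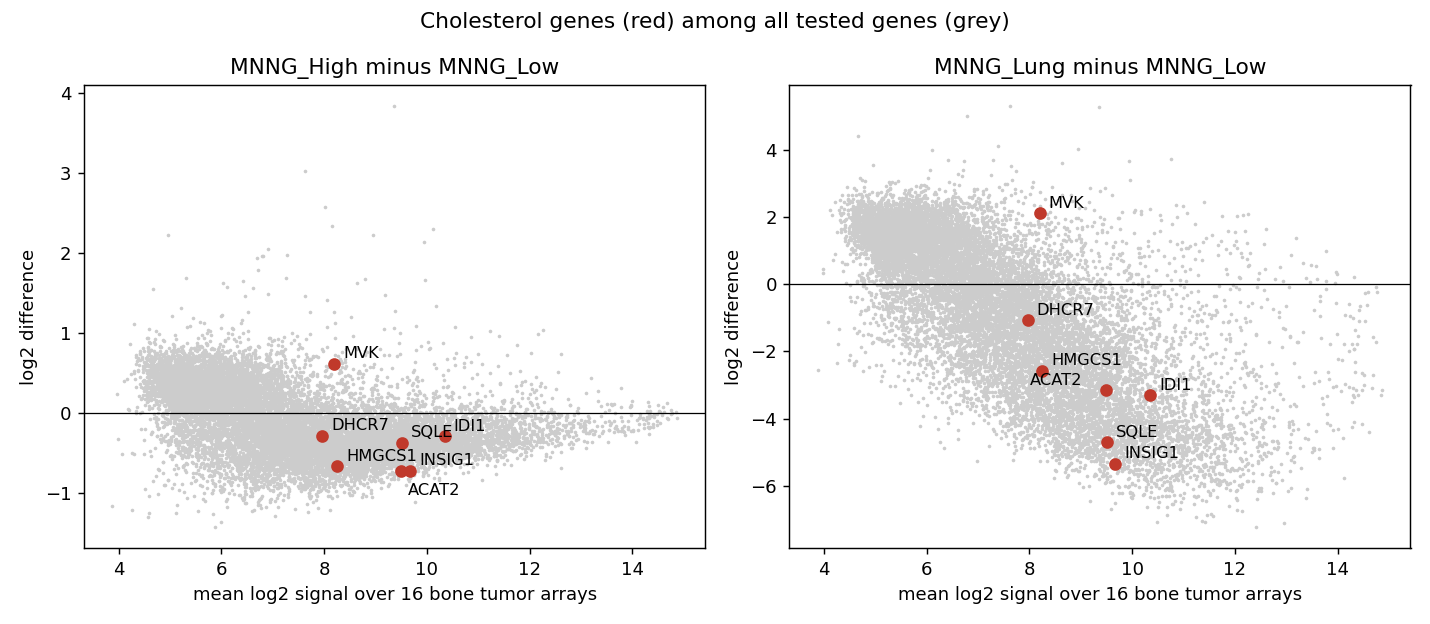
Log2 difference (vertical axis) against mean log2 signal over the 16 bone tumor arrays (horizontal axis) for the 14418 tested genes in grey, with the 7 cholesterol genes in red. On the left, for MNNG_High minus MNNG_Low, SQLE, IDI1 and DHCR7 lie inside the cloud of genes of like signal, ACAT2, INSIG1 and HMGCS1 toward its lower edge and MVK above it. On the right, for MNNG_Lung minus MNNG_Low, genes of high signal fall widely and MVK again lies above genes of like signal.

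Probe sets of a gene did not always move alike. The 3 other probe sets of IDI1 fell, at -0.53 (208881_x_at, adjusted p = 0.0261), -0.87 (233014_at, 0.0245) and -0.47 (242065_x_at, 0.0278), although the brightest did not pass. HMGCS1 fell on 221750_at but 205822_s_at was at -0.40 (adjusted p = 0.152). The rise of MVK rested on 36907_at, since 204056_s_at (0.31, adjusted p = 0.218) and 236686_at (0.35, 0.129) were above 0 without passing. INSIG1 fell on 201626_at, with 201625_s_at at -0.77 and 201627_s_at at -0.52 not passing. None of the 4 probe sets of SQLE and neither of DHCR7 passed. In all 7 of 19 probe sets were called, against 25.5% of all 26556 probe sets tested.

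**Figure D4:**
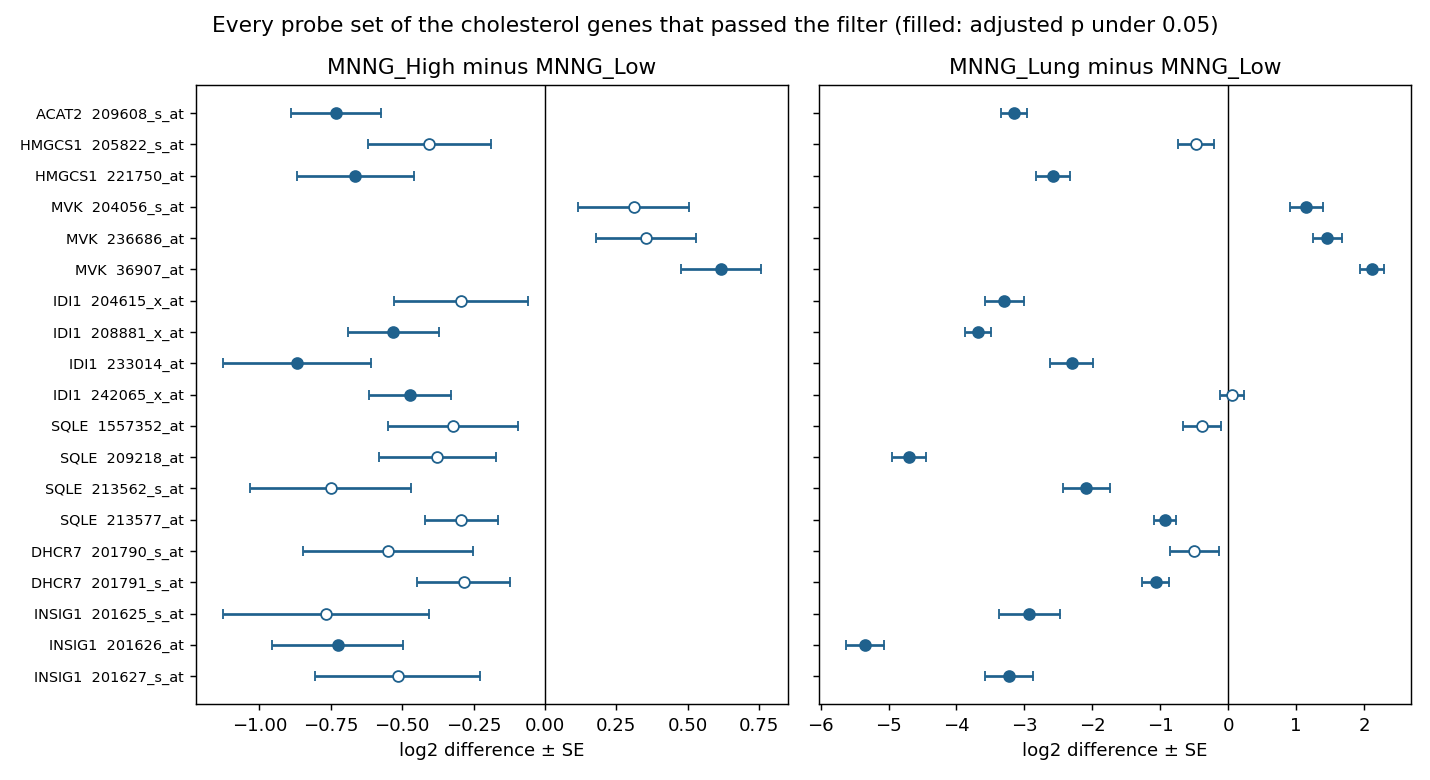
Log2 difference ± SE (horizontal axis) of each of the 19 tested probe sets of the cholesterol genes (vertical axis) for MNNG_High minus MNNG_Low on the left and MNNG_Lung minus MNNG_Low on the right, filled where the adjusted p was under 0.05. On the left 7 are filled and only MVK lies above 0. On the right 15 are filled, and 1 probe set each of HMGCS1, IDI1, SQLE and DHCR7 is open.

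Single arrays and technical measures bore on these calls. ACAT2 and MVK were called whichever of the 8 MNNG_High and MNNG_Low arrays was left out, HMGCS1 and INSIG1 each in 3 of the 8 cases. Leaving out High MNNG-1231, High MNNG-1233, Low MNNG-1233 or Low MNNG-1235 left 2 of the 7 genes called. In that order 1376, 1676, 1673 and 2175 of all 14418 genes were called, against 3761 with all arrays. Without the High arrays of both MNNG-1231 and MNNG-1233, a setting chosen after seeing the data, ACAT2 lay at -0.82 (adjusted p = 0.0646), INSIG1 at -0.61 (0.281), HMGCS1 at -0.39 (0.398) and MVK at 0.37 (0.154), and 56 of all genes were called.

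The array names carry 3 date tags. All MNNG_High arrays and Low MNNG-1231 share a tag, while the other 3 MNNG_Low arrays share another. Within the shared tag MNNG_High minus Low MNNG-1231 was -0.76 for ACAT2, -0.67 for INSIG1, -0.33 for HMGCS1 and 0.53 for MVK, and -0.08, -0.06 and -0.07 for IDI1, SQLE and DHCR7. That estimate rests on 1 Low array, and with the tag as a covariate 0 of the 7 genes and 3 of all genes were called (limma, 2169 at an unadjusted p under 0.05, adjusted p of these 4 genes 0.207 to 0.603). With the hybridization control signal as a covariate ACAT2 stayed at -0.70 (adjusted p = 0.182), while HMGCS1 lay at -0.08 (0.868) and INSIG1 at -0.19 (0.758). Of all 14418 genes 5 were called with that covariate, against 3761 without it.

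**Figure D5:**
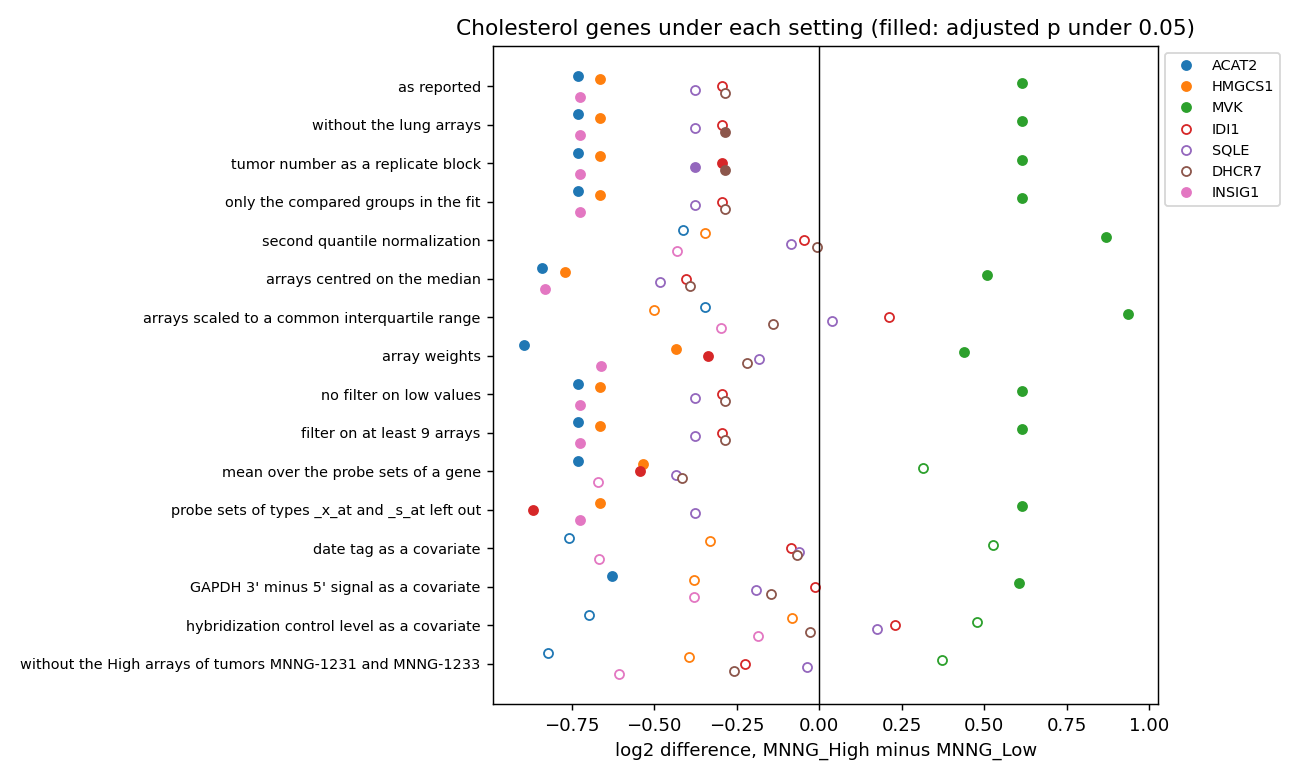
MNNG_High minus MNNG_Low log2 difference (horizontal axis) of each gene under each processing setting (vertical axis), coloured by gene and filled where the adjusted p was under 0.05. ACAT2 lies between -0.90 and -0.35 and MVK between 0.31 and 0.93 in all settings drawn, whereas HMGCS1 and INSIG1 move toward 0 with the control signals as covariates and IDI1 and SQLE cross it.

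Markers of other cells moved with dye retention. Macrophage markers, of which 6 of 11 annotated genes were tested, had 4 higher and 0 lower in MNNG_High: AIF1 (2.34 ± 0.27), SPI1 (1.65 ± 0.28), FCER1G (0.88 ± 0.18) and C1QA (0.62 ± 0.15). The mean signal of the 11 was 5.46 to 5.93 on MNNG_High and 4.85 to 5.00 on MNNG_Low arrays, and 5 and 7 of them had a group mean under the filter value. CD14, a monocyte receptor, averaged 5.55 in MNNG_High and 5.46 in MNNG_Low. Endothelial markers had 1 of 4 higher (PECAM1, 0.52), erythroid markers 1 of 3 higher (SLC4A1, 0.58) and lung epithelial markers 1 of 4 higher (SFTPC, 0.39) and 1 lower (EPCAM, -0.71). The 6 genes that check for osteosarcoma cells, VIM, SPARC, COL1A1, COL1A2, RUNX2 and THY1, had 0 higher and 0 lower. In sorted bulk samples a smaller share of cells that express a gene and less of its RNA per cell cannot be told apart. The part of these markers, of the array shape and of the control signals in the differences of the cholesterol genes was not tested.

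The rest of the pathway in MNNG tumors was read from fixed lists. Of 12 other synthesis enzymes tested, 0 rose and 3 fell, with a median of -0.46: LBR, a sterol reductase of the nuclear envelope (-0.63 ± 0.15, adjusted p = 0.0101), HSD17B7, which acts on the sterol ring after lanosterol (-0.55 ± 0.17, 0.0275), and PMVK, the kinase after MVK (-0.51 ± 0.14, 0.0199). PMVK thus fell where MVK rose. Of the 6 genes of sterol sensing and SREBP processing 0 rose and 0 fell, with SREBF2 at -0.39 (adjusted p = 0.0968), SREBF1 at -0.07 (0.717) and INSIG2 at -0.14 (0.706).

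Uptake and intracellular transport had 1 of 7 tested genes higher and 1 lower. LRP1, an endocytic lipoprotein receptor, averaged 7.23 ± 0.19 in MNNG_High and 6.80 ± 0.07 in MNNG_Low (SD, n = 4 each) and rose by 0.42 ± 0.13 (adjusted p = 0.0239). NPC1, which exports cholesterol from lysosomes, fell by 0.50 ± 0.16 (adjusted p = 0.0317). Another 2 genes of this list were not analysed here.

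Of the 4 genes tested for efflux and esterification 1 rose and 1 fell. ABCA1, which passes cholesterol to apolipoproteins, averaged 8.53 ± 0.41 in MNNG_High and 7.61 ± 0.27 in MNNG_Low (SD, n = 4 each), a rise of 0.93 ± 0.18 (adjusted p = 0.00495). SOAT1, which esterifies cholesterol for storage, fell by 0.54 ± 0.17 (adjusted p = 0.0291), and the other 2 did not pass. Macrophages also express ABCA1 and LRP1, and the called macrophage markers above moved in the same direction. The part of macrophages in the rise of ABCA1 and LRP1 was not tested.

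Fatty acid synthesis, which SREBP also controls, had 0 of 7 genes higher and 4 lower, with a median of -0.50: FASN (-0.77 ± 0.20, adjusted p = 0.0139), ELOVL6 (-0.72 ± 0.24, 0.0370), ACACA (-0.56 ± 0.18, 0.0337) and SCD (-0.50 ± 0.18, 0.0469). Cell division genes had 0 of 10 higher and 4 lower, with a median of -0.47: BUB1 (-0.79), MCM2 (-0.54), MCM3 (-0.51) and AURKA (-0.44).

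In 143B tumors no cholesterol gene passed the test between dye-retaining and bulk cells. Of all genes 0.00694%, 1 gene, passed, and 745 had an unadjusted p under 0.05 (limma). The median of the 7 genes was -0.29, again with 6 below and 1 above 0, and that of all genes was -0.02. With array weights 201 of all genes and 0 of the 7 were called.

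HMGCS1 had signals of 8.46, 8.44 and 8.10 in 143B_High (tumor 143B-1253 and the pools 143B-51&52 and 143B-54&55), against 8.70, 8.95, 8.91, 8.79 and 8.63 in 143B_Low (tumors 143B-1251 to 143B-1255). The groups did not overlap, and the difference was -0.46 ± 0.21 (95% interval -0.90 to -0.02, unadjusted p = 0.0421, adjusted p = 0.938). Its other probe set, 205822_s_at, lay at 0.16 here. SQLE had 9.17, 9.04 and 9.02 in 143B_High against 9.39, 9.29, 9.51, 9.39 and 9.50 in 143B_Low, also without overlap (-0.33, 95% interval -0.78 to 0.11). These were the 2 genes with groups apart, both lower, against 6.53% of all genes apart downward, 5.34% upward and 11.9% together.

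ACAT2 had 9.56, 9.50 and 9.01 in 143B_High against 9.56, 9.66, 9.87, 9.57 and 9.55 in 143B_Low, and only the pool 143B-54&55 lay clearly below (-0.29, 95% interval -0.63 to 0.05). INSIG1 had 9.40, 9.61 and 8.89 in 143B_High against 9.23, 9.86, 10.09, 9.58 and 9.32 in 143B_Low (-0.32, 95% interval -0.81 to 0.18). DHCR7 lay at -0.20 (-0.54 to 0.15), IDI1 at -0.04 (-0.55 to 0.46) and MVK at 0.08 (-0.22 to 0.38). MVK signals were 8.11, 8.07 and 8.15 in 143B_High, inside the range of 7.89 to 8.28 in 143B_Low. Within tumors or pools ACAT2, HMGCS1, SQLE and DHCR7 were lower in 3 of 3, as were 25.6% of all genes, while 0 of the 7 genes were higher in 3 of 3, as were 19.8% (45.5% together).

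None of the other lists had a called gene in 143B. LBR lay at -0.36, LSS at -0.33, STARD4 at -0.46 and ABCA1 at 0.31, each with an adjusted p of 0.905 or more. The mean signal of the macrophage markers was 5.03 to 5.30 on 143B_High and 4.72 to 4.88 on 143B_Low arrays. Among them AIF1 averaged 8.48 ± 0.41 in 143B_High (SD, n = 3) and 7.24 ± 0.30 in 143B_Low (SD, n = 5), a difference of 1.24 ± 0.28 (limma, adjusted p = 0.358). SPI1 averaged 6.78 ± 0.34 in 143B_High and 5.78 ± 0.27 in 143B_Low, a difference of 1.002 ± 0.289 (limma, adjusted p = 0.604), and neither gene's groups overlapped.

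No difference between the lines in the effect of dye retention passed the test for any of the 7 genes. The High minus Low difference in 143B minus that in MNNG was -0.54 for MVK (95% interval -0.95 to -0.12, unadjusted p = 0.0142, adjusted p = 0.463) and 0.44 for ACAT2 (-0.03 to 0.92, adjusted p = 0.500), and 0.00694% of all genes passed. For HMGCS1 it was 0.20 (-0.41 to 0.82), so an effect of equal size and one that differs by 0.8 are both inside the interval. In the mean of both lines the 3 genes ACAT2 (-0.51 ± 0.11, adjusted p = 0.00973), HMGCS1 (-0.56 ± 0.15, 0.0196) and INSIG1 (-0.52 ± 0.16, 0.0389) fell and MVK rose (0.35 ± 0.10, 0.0264), where 9.85% of all genes fell and 7.53% rose, 17.4% together. With the tumor as a replicate block SQLE (adjusted p = 0.0113) and DHCR7 (0.0292) fell too, as did 4119 of all 14418 genes, against 1420 without the block. Of the 16 cases with 1 array left out ACAT2 was called in 16, HMGCS1 in 15, MVK in 11 and INSIG1 in 6, and none of the 4 was called with the date tag (adjusted p 0.104 to 0.263) or the hybridization control signal (0.357 to 0.978) as a covariate. ACAT2, HMGCS1, SQLE and DHCR7 were lower in all 7 tumors and pools, as were 18.4% of all genes, while 0 of the 7 genes were higher in all of them, as were 8.54% (26.9% together).

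Between the lines DHCR7 and HMGCS1 were higher in 143B. In 143B_Low minus MNNG_Low 2 of the 7 genes rose and 0 fell, where 14.4% and 14.5% of all genes did, 28.8% together. In 143B_High minus MNNG_High 2 rose and 1 fell, where 21.4% and 14.7% of all genes did, 36.1% together. In bulk cells DHCR7 averaged 8.57 ± 0.08 in 143B_Low (SD, n = 5) and 7.57 ± 0.23 in MNNG_Low (SD, n = 4), a difference of 0.999 ± 0.152 (adjusted p = 5.67e-05). In dye-retaining cells it averaged 8.38 ± 0.12 in 143B_High (SD, n = 3) and 7.29 ± 0.04 in MNNG_High (SD, n = 4), a difference of 1.09 ± 0.17 (adjusted p = 0.000106). Every 143B array lay above every MNNG array for this gene. HMGCS1 was higher by 0.59 ± 0.19 in 143B_Low than in MNNG_Low (adjusted p = 0.0292) and by 0.79 ± 0.22 in 143B_High than in MNNG_High (0.0103), in both cases without overlap. Its other probe set, 205822_s_at, was higher too, by 0.78 in bulk (adjusted p = 0.00678) and 1.35 in dye-retaining cells (0.000239). The settings that follow use the brightest probe set. In bulk cells HMGCS1 was called in 3 of the 9 cases with 1 array left out, and not after the second quantile normalization (0.56, adjusted p = 0.0711), with arrays scaled to a common interquartile range (0.53, 0.121) or with the tag of the other 3 MNNG_Low arrays as a covariate, which leaves Low MNNG-1231 alone as the MNNG side (0.92, 0.0689). In dye-retaining cells it was called in 7 of 7 such cases, but not after the second normalization (0.52, 0.118), with the common range (0.63, 0.0816) or without the High arrays of MNNG-1231 and MNNG-1233 (0.52, 0.142). These bulk and dye-retaining comparisons use different arrays.

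None of the remaining genes rose in either comparison of the lines. SQLE lay at -0.52 ± 0.19 (adjusted p = 0.0506) and INSIG1 at -0.58 ± 0.22 (0.0515) in 143B_Low minus MNNG_Low, and both fell with the tumor as a replicate block (0.0265 and 0.0362) as well as without the lung arrays (0.0208 and 0.0226). ACAT2, MVK and IDI1 lay between -0.16 and 0.00 there, with adjusted p of 0.470 or more. Some dimmer probe sets passed in that comparison, all lower in 143B_Low. They were 242065_x_at of IDI1 (-0.48, adjusted p = 0.0139), 213562_s_at of SQLE (-0.85, 0.0244) and 201627_s_at of INSIG1 (-0.79, 0.0386). The remaining probe sets of these genes did not pass. In 143B_High minus MNNG_High ACAT2 lay at 0.28 (adjusted p = 0.197), IDI1 at 0.23 (0.485) and INSIG1 at -0.17 (0.595). With array weights ACAT2 (0.50, 0.00638) and IDI1 (0.32, 0.0373) passed, as did 7686 of all 14418 genes, against 5203 without weights. MVK was lower in 143B_High than in MNNG_High (-0.54 ± 0.15, adjusted p = 0.00957), but did not pass with the mean over its probe sets (-0.30, 0.110) or without the High arrays of MNNG-1231 and MNNG-1233 (-0.30, 0.137). SQLE (-0.48 ± 0.22, 0.0942) passed there in 8 of 21 alternative settings, among them the replicate block (0.0466). It also passed after the second normalization (-0.66, 0.0329) and with the common range (-0.86, 0.0118). Of all 14418 genes 3882 and 4138 were called in these last 2 settings. Signal ranges were apart upward for 2 and downward for 1 of the 7 genes in 143B_Low against MNNG_Low, with 18.1% and 20.2% of all genes apart (38.3% together), and for 2 and 1 in 143B_High against MNNG_High, with 24.9% and 17.1% (42.0% together). All 143B arrays share a date tag that no MNNG array has, so line and tag cannot be told apart.

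Other enzymes of the chain also went both ways between the lines. In 143B_Low minus MNNG_Low 1 of 12 rose, SC5D (1.69 ± 0.29, adjusted p = 0.000195), which like DHCR7 acts on the last sterols before cholesterol. Another 5 fell, among them EBP, the sterol isomerase before SC5D (-1.52 ± 0.22, 3.71e-05), PMVK (-0.93 ± 0.14, 4.06e-05) and LSS, which closes the sterol ring (-0.70 ± 0.15, 0.00130). SREBF1 fell (-0.62 ± 0.15, 0.00343) and SCAP rose (0.47 ± 0.13, 0.0111). NPC1 rose (1.002 ± 0.151, 5.10e-05), ABCA1 fell (-0.49 ± 0.17, 0.0394) and of the fatty acid genes ELOVL6 (1.16), FADS2 (0.56) and SCD (0.53) rose. In dye-retaining cells 4 of the 12 enzymes rose and 3 fell, with SC5D at 2.08 ± 0.33 (0.000104) and EBP at -1.13 ± 0.25 (0.00226).

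On the lung arrays 6 of the 7 genes were lower than in MNNG bone tumors, DHCR7 least, and MVK was higher. All 7 passed in MNNG_Lung minus MNNG_Low, 6 lower and 1 higher, where 51.9% of all genes fell and 35.1% rose, 87.0% together. The ranges of the 2 groups were apart for all 7 genes, as they were for 85.7% of all genes. The median of the 7 was -3.15 and that of all genes -0.64.

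INSIG1 had signals of 5.32 and 4.40 on the lung arrays of animal MNNG-1233 and the mixture, against a range of 10.03 to 10.54 in MNNG_Low. SQLE had 5.64 and 4.82 there, against 9.62 to 10.23 in MNNG_Low. Both lung means, 4.86 for INSIG1 and 5.23 for SQLE, lay under the filter value, so the differences of -5.34 ± 0.28 and -4.70 ± 0.25 run from a clear signal to one under the median of the table. IDI1 had 7.96 and 6.33, HMGCS1 6.14 and 5.12 and DHCR7 6.96 and 6.06, with the mixture the lower array each time. ACAT2 had 6.66 on both.

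The differences to MNNG_Low were -3.30 ± 0.29 for IDI1, -3.15 ± 0.19 for ACAT2, -2.58 ± 0.25 for HMGCS1 and -1.07 ± 0.20 for DHCR7, all with an adjusted p of 5.49e-05 or less. With the hybridization control signal as a covariate DHCR7 lay at -0.39 (adjusted p = 0.442), while the other 6 genes were still called. MVK had 10.17 and 10.12 on the lung arrays, against 7.84 to 8.12 in MNNG_Low, a rise of 2.12 ± 0.17 (4.33-fold, adjusted p = 1.10e-09). Genes with a bone tumor signal of 8 to 10 had a median of -2.63 (quartiles -3.75 and -1.36) in this comparison. HMGCS1 lay at 0.05 and ACAT2 at -0.52 relative to it, while SQLE lay at -2.08, INSIG1 at -2.72 and MVK at 4.74. IDI1 lay at 0.85 relative to the median of -4.15 for signals of 10 to 12, so it fell less than genes of like signal. DHCR7 lay at -0.92 relative to -0.15 for signals of 6 to 8.

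Against MNNG_High cells the lung arrays again had 6 of the 7 genes lower and 1 higher, where 47.6% and 34.8% of all genes were, 82.4% together. The ranges were apart for all 7, as for 77.6% of all genes. The differences were -4.62 for INSIG1, -4.33 for SQLE, -3.00 for IDI1, -2.42 for ACAT2, -1.91 for HMGCS1, -0.78 for DHCR7 and 1.50 for MVK. Both comparisons share the 2 lung arrays. DHCR7 was no longer called there without the mixture (-0.33, adjusted p = 0.0918), with array weights (-0.80, 0.0866), with the mean over its probe sets (-0.37, 0.200) or with the hybridization control signal as a covariate (-0.36, 0.295).

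Some probe sets did not share the fall on the lung arrays. In MNNG_Lung minus MNNG_Low IDI1 lay at 0.05 on 242065_x_at (adjusted p = 0.797) but at -3.68 on 208881_x_at and -2.30 on 233014_at. HMGCS1 lay at -0.47 on 205822_s_at (0.102), SQLE at -0.39 on 1557352_at (0.201) and DHCR7 at -0.50 on 201790_s_at (0.210). All 3 tested probe sets of MVK rose, by 1.15, 1.46 and 2.12. In all 15 of 19 probe sets were called, against 84.4% of all probe sets. In MNNG_Lung minus MNNG_High 242065_x_at of IDI1 rose (0.52, adjusted p = 0.0119). There 205822_s_at of HMGCS1 lay at -0.07 (0.821), 1557352_at of SQLE at -0.07 (0.835) and 201790_s_at of DHCR7 at 0.05 (0.901). The remaining tested probe sets of the 6 lower genes fell in that comparison.

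The rest of the chain moved widely there too. Of 12 other enzymes 2 rose and 10 fell, with LBR (-5.36 ± 0.18), MSMO1 (-5.47 ± 0.31), NSDHL (-3.20 ± 0.22) and GGPS1 (-3.52 ± 0.28) the falls with the smallest p. The lung means of LBR (5.28), MSMO1 (4.22) and NSDHL (3.95) lay under the filter value of 5.36, and that of GGPS1 was 5.44. The 2 that rose, named after their values were seen, were MVD, which follows PMVK in the mevalonate steps (1.01 ± 0.20), and TM7SF2, a sterol reductase (1.01 ± 0.17). SREBP processing had 1 higher and 4 lower of 6, uptake 1 higher and 5 lower of 7, efflux and esterification 2 and 2 of 4, fatty acid synthesis 2 and 5 of 7 and cell division 0 and 10 of 10. LRP1 (1.13 ± 0.15) and ABCA1 (1.26 ± 0.22) were higher on the lung arrays too.

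The lung arrays also differed in their cell markers. All 6 tested macrophage markers rose, with a mean signal of the 11 of 6.81 and 6.87 against 4.85 to 5.00 in MNNG_Low, and 0 of 11 under the filter value. All 4 tested endothelial and all 3 erythroid markers rose, and of 4 lung epithelial markers SFTPC (1.80) and SFTPB (0.75) rose and EPCAM fell (-3.74). Of the 6 osteosarcoma check genes 3 fell. SPARC averaged 7.00 on the lung and 12.1 on the MNNG_Low arrays and RUNX2 6.68 and 10.5, whereas VIM averaged 14.3 and 14.6. Their part in the differences of the cholesterol genes, and that of the narrower signal range, was not tested.

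Across the 16 bone tumor arrays, after each group's mean was taken off, 16 of the 21 pairs of the 7 genes varied in the same direction, with a median Pearson r of 0.371. The highest was 0.776 for HMGCS1 with SQLE and the lowest -0.688 for MVK with SQLE. The arrays share their scaling, and the 2 narrow MNNG_High arrays are among them, so these values are a description. The genes most like each member over these 16 arrays were CENPK and PPP1R26-AS1 for ACAT2 (r = 0.875 and 0.853), ZNF234 and ETFDH for HMGCS1 (0.930 and 0.919), and ST3GAL3 and OR7E104P for MVK (0.975 and 0.967). For IDI1 they were FLI1 and WARS2-AS1 (0.924 and 0.892), for SQLE NFX1 and YTHDF3 (0.956 and 0.946), for DHCR7 FAXC and SLC25A25 (0.797 and 0.791) and for INSIG1 FAM43B and DNAJB6 (0.912 and 0.911). None of these 14 genes is in the lists of the pathway.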

How the data were processed

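Human 3′ expression arrays measured total RNA of 18 samples in 5 groups, taken from the sample titles. The deposited values are log2 signals made with RMA by the authors, per the submitters' processing notes. Neither its version nor whether all arrays were normalized together is stated there. They were used as deposited. Of 54675 probe sets 41097 were annotated to 1 gene, 1801 to several and 11777 to none, and only the first were used. A gene was read from its brightest probe set. Genes with a signal of 5.36, the median over all arrays and probe sets, on 3 or more arrays were tested (14418 of 19775) with limma 3.58.1 in R 4.3.3, in 1 fit of 5 group means and 8 comparisons, with adjusted p over all genes and a threshold of 0.05. All p-values are two-sided. Probe sets were tested alike (26556). On simulated data the fit was checked for known changes.

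The cholesterol genes, the other gene lists and the tests were chosen with earlier results of these data known. Named from the other lists were called genes, up to 4 a comparison with the smallest p, and for each cholesterol gene the 2 genes with the most similar deviations from group means. Others are named for context. The lists were other synthesis enzymes, SREBP processing, uptake, efflux, fatty acid synthesis, cell division, and markers of tumor cells, macrophages, endothelium, lung epithelium and erythroid cells. In MNNG the High and the Low array of a tumor deviated together, with r of 0.299 to 0.579, and the tumor numbers, which come from the titles, were used as a block in an alternative fit. Other alternatives changed scaling, filter, probe set choice, array weights, covariates and the arrays used. The number of arrays limits the precision, and p-values measure the spread between tumors.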

Additional observations from a re-analysis of the deposited data

Results flagged for a closer look

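DHCR7 on the array Low 143B-1252 stood apart from the other 143B_Low arrays, at 8.42 against 8.59 to 8.63 on the other 4. Its gap to the nearest array was 0.845 of the range of the group, above the critical value of 0.71 for 5 arrays. Of 21 groups of 4 or 5 arrays examined this was the 1 such value, where chance gives about 1 in 20.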

How the results depend on the processing

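Of the member differences, 1140 values under an alternative kept their side of the threshold, 91 lost and 41 gained a call, and no called value turned its direction. For MNNG_High minus MNNG_Low 4 of the 7 genes were called. Paired by tumor with the replicate block 7 were called, 1 after a second quantile normalization, 1 with arrays scaled to a common interquartile range, 0 with the date tag, 2 with the GAPDH 3′ to 5′ difference and 0 with the signal of the hybridization controls as a covariate, and 0 without the High arrays of MNNG-1231 and MNNG-1233. Leaving out single arrays gave 2 to 5, and 1376 to 5939 of all 14418 genes. Among all genes 1532 rose and 2229 fell there, but 744 and 284 after the second normalization, 840 and 396 with the common range and 989 and 3721 after median centring. With the GAPDH difference as a covariate 1547 of all 14418 genes were called and with the control signal 5, against 3761 without a covariate. With the mean over probe sets ACAT2, HMGCS1 and IDI1 were called and MVK (0.31, adjusted p = 0.0855) and INSIG1 (-0.67, 0.0740) were not.

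For the mean of both lines 4 were called, 1 after the second normalization, 0 with the common range, 1 with the mean over probe sets, 0 with the date tag, 1 with the GAPDH difference, 0 with the control signal and 1 without those 2 High arrays. Of all 14418 genes 2505 were called there, 617 after the second normalization, 629 with the common range and 809 with the GAPDH difference. It was 0 with the control signal and 497 without those 2 High arrays, and 2395 of 12903 with the mean over probe sets. SQLE and DHCR7 were gained without the lung arrays, with the replicate block and with array weights. In these settings 4938, 6281 and 5756 of all 14418 genes were called. Without 1 array the count of the 7 was 1 to 5: 1 without High 143B-54&55, and 2 without High 143B-1253, Low 143B-1254, High MNNG-1231 or Low MNNG-1233. Of all 14418 genes 937 to 4560 were called without 1 array. For 143B_Low minus MNNG_Low 2 were called. The count was 4 without the lung arrays, with the replicate block, with the 2 groups alone, with array weights, with a filter on 9 arrays and with the control signal, and 1 after the second normalization, with the common range, without the _x_at and _s_at probe sets and with the date tag. Of all 14418 genes 4158 were called there, 5361 without the lung arrays, 5072 with the replicate block and 6529 with the 2 groups alone. It was 7024 with array weights, 4541 with the control signal, 3205 after the second normalization and 3078 with the common range. With the filter on 9 arrays it was 3942 of 12677, and without the _x_at and _s_at probe sets 3241 of 11412. ACAT2 and DHCR7 have no other probe set, so they were not tested in that last setting. HMGCS1 was still called there, so the lower count reflects an untested DHCR7 and no lost call. Leaving out single arrays gave 1 to 2 of the 7 genes. HMGCS1 was lost in 6 of 9 such cases: without Low 143B-1252, Low 143B-1253, Low 143B-1254, Low MNNG-1231, Low MNNG-1232 or Low MNNG-1233, and in 3 of these INSIG1 or SQLE was gained. For 143B_High minus MNNG_High 3 were called, 6 with array weights, 2 with the mean over probe sets (MVK lost) and 2 without those 2 High arrays (HMGCS1 and MVK lost, SQLE gained), and 3 to 4 without single arrays. Of all 14418 genes 5203 were called there, 7686 with array weights and 3305 without those 2 High arrays. With the mean over probe sets it was 5026 of 12903. For MNNG_Lung minus MNNG_High 6 to 7 were called without single arrays, and for MNNG_Lung minus MNNG_Low 7, but 6 with the control signal as a covariate (DHCR7 lost). In 143B_High minus 143B_Low and in the difference between lines 0 of the 7 were called under every setting run (limma). The block changed no call other than those given. The cause of these changes was not tested.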
